A study of Mus musculus with 12 samples.

Results

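The 36 genes described here encode the mineral-binding proteins, mineral and phosphate enzymes, other matrix proteins, signals, receptors and helix-loop-helix factors of bone-forming cells. They were taken as a list of named genes, and all 36 of them were found among the 21887 protein-coding genes placed on chromosomes 1 to 19, X and Y in the RefSeq gene table of GRCm38.p6. A gene was counted for a library when at least 1 bp of a deposited peak lay in the gene or within 5 kb of either end. By this rule 24 of the 36 genes had a peak in at least 1 library and 12 had none. A knockdown library had a peak at 23 of them (63.9%, against 57.7% of all protein-coding genes). At 1 gene only a control library had one (2.78%, against 0.982% of all). There were 74 such peaks, 66 in knockdown and 8 in control libraries.

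The study immunoprecipitated chromatin of MC3T3-E1 cells, a mouse osteoblast line, with an antibody against MACF1, a large linker of actin filaments and microtubules. Its 12 samples formed 4 groups of 3: MACF1 knockdown immunoprecipitates, MACF1 knockdown inputs, control immunoprecipitates and control inputs, each with the labels 1, 2 and size3. The labels give neither the construct behind the knockdown nor what the control cells received, and nothing says that the libraries came from separate cultures, so a p-value between groups measures only the spread between these libraries. The labels do not explain size3, and 2 antibody lots are named without saying which library had which. The comparison asks where near these genes the antibody recovered DNA in knockdown and in control cells. The assay reads genomic DNA, so neither the cell type nor the knockdown could be checked by expression.

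Osteoblasts secrete a collagen matrix and then mineralise it. Alkaline phosphatase removes pyrophosphate, an inhibitor of mineral that ENPP1 produces, and acidic proteins such as osteopontin and bone sialoprotein bind the growing crystals. The same cells answer parathyroid hormone, fibroblast growth factors, insulin-like growth factor 1 and vitamin D, and steer osteoclasts through RANKL and its decoy receptor osteoprotegerin. Osteocytes, which arise from osteoblasts, restrain Wnt signalling with sclerostin.

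The libraries differed in depth and in list length. The immunoprecipitates held 5575205 to 33085606 reads after duplicate removal, with a redundant rate of 0.01 to 0.65, and the lists held 198 to 21398 peaks. Knockdown 2 had both the fewest reads and the highest redundant rate. The peak caller's false discovery rate sets the number of peaks called with immunoprecipitate and input swapped against the number called unswapped. The swapped peaks need not be at the same places. This rate had a median of 2.71% in knockdown 1 and 4.37% in knockdown size3. It was 100% in knockdown 2, control 1 and control 2 and 85.3% in control size3. What these differences contribute to the counts of peaks at the bone genes was not tested.

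The promoters that peaks covered are shown first, since they are the places where the peaks lie at the control regions of these genes. The RefSeq promoter table of GRCm38.p6 held at least 1 start for 29 of the 36 genes. Peaks of knockdown 1 covered the whole 250 bases before a start of Sost, Tnfsf11 and Igf1, and peaks of knockdown size3 those of Pth1r, Fgf18 and Postn. Peaks of knockdown size3 also covered 19 of these bases at Fgfr3 and 107 at Enpp1, which are not shown. The share of all listed promoters that peaks covered was not computed. No peak of knockdown 2 or of the 3 control libraries touched a listed promoter of the 36 genes. Few peaks in those lists lay near any listed start. The share with a summit within 1 kb of one was 0.573% in knockdown 2 and 0.406% in control 1. It was 0 in control 2 and 3.18% in control size3. The 250 bases are written 5′ to 3′ along each gene, ending at the base before the start, with matches to the motifs below in capitals.
Sost (chr11:101967016-101967265, minus strand): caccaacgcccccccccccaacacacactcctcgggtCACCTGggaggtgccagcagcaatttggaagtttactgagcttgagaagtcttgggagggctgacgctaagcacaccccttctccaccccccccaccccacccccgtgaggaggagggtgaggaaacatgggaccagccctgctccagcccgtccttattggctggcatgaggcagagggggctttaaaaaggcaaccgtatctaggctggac
Tnfsf11 (chr14:78308044-78308293, minus strand): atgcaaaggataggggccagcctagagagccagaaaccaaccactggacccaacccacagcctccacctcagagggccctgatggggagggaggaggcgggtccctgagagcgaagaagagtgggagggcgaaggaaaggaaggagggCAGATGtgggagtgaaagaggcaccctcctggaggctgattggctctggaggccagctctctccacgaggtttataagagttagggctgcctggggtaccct
Igf1 (chr10:87860861-87861110, plus strand): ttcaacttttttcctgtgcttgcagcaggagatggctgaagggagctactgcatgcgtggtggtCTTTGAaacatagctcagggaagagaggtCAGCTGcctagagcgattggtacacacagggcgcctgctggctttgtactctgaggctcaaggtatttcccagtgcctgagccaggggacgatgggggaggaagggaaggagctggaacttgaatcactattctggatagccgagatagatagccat
Pth1r (chr9:110747146-110747395, minus strand): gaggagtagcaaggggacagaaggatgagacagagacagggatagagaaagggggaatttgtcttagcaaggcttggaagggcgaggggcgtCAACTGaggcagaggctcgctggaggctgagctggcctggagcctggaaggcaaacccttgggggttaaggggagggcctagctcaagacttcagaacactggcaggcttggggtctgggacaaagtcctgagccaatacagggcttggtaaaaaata
Fgf18 (chr11:33147401-33147650, minus strand): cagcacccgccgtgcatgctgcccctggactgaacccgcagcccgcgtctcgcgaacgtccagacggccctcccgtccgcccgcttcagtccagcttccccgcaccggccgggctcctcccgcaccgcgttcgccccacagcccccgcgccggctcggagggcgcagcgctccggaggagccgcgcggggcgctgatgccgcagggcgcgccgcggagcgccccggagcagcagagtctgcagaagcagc
Postn (chr3:54360857-54361106, plus strand): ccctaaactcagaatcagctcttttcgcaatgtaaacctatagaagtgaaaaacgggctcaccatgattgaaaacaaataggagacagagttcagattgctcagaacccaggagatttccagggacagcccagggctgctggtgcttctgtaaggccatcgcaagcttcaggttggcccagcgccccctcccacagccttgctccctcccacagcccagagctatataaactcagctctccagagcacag

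These promoters shared few of the motifs searched on both strands. The motifs were CTTTGA (the TCF/LEF core), CANNTG (the E-box), ACCACA (the Runx core) and GCGGGAA (the E2F core), and no matches of different motifs overlapped. An E-box match was found in Sost, Tnfsf11, Igf1 and Pth1r, with its first base 213, 102, 157 and 158 bases before the start, in that order. Such a match occurs in 62.8% of all 21263 listed promoters of protein-coding genes. Igf1 alone among the 6 held the TCF/LEF core, 186 bases before the start, against 12.7% of all promoters. None of the 6 held the Runx core (12.4% of all) or the E2F core (4.96% of all). The base composition differed widely: 77.2% G and C in Fgf18 and 52% in Postn, against a median of 55.6% over all promoters. A match describes the letters of these windows only.

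Peaks at the bone genes lay mostly in knockdown 1 and knockdown size3. In knockdown 1, 16 of the 36 genes (44.4%) had a peak, against 43.7% of all protein-coding genes. Knockdown 2 had a peak at 3 genes (8.33%, against 7.95% of all) and knockdown size3 at 19 genes (52.8%, against 35.5% of all). Control 1 had a peak at 1 gene (2.78%, against 1.38% of all), control 2 at none (against 0.315% of all) and control size3 at 5 (13.9%, against 5.49% of all). The counts averaged 12.7 ± 8.5 genes in knockdown and 2.0 ± 2.65 genes in control libraries (SD, n = 3 each), a difference of 10.67 genes. The ranges overlapped, since knockdown 2 lay below control size3. At least 1 knockdown library had a peak at 23 genes (63.9%, against 57.7% of all). In knockdown 1 and knockdown 2 the share of bone genes was near that of all genes.

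**Figure D1:**
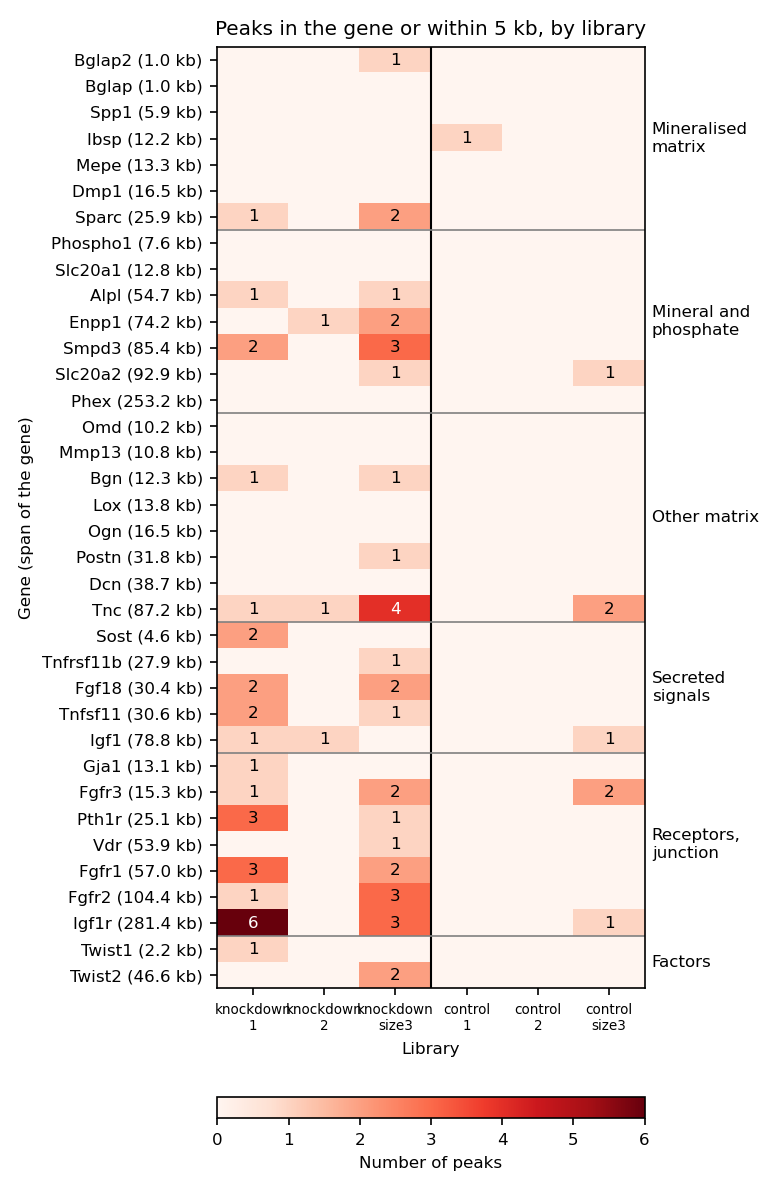
Number of peaks in each of the 36 genes or within 5 kb (rows, ordered by role and then by span, which is given in kb) in each library (columns). Numbers and colour give the count of peaks and empty cells are 0. Knockdown 1 and knockdown size3 hold most peaks, up to 6 in Igf1r.

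Repeated hits rested on that pair of libraries, at the bone genes and over all genes. In at least 2 knockdown libraries, 14 of the 36 genes had a peak (38.9%, against 26.1% of all genes). The count was 2 without knockdown 1 and 2 without knockdown size3. Both knockdown 1 and knockdown size3 had a peak at 12 of the 14, and at 5132 of the 5710 such genes among all genes. At least 1 control library had a peak at 6 genes (16.7%, against 6.70% of all), but at 1 gene without control size3, and no bone gene had a peak in 2 control libraries (0.457% of all genes did). Peaks in both groups were present at 5 genes (13.9%, against 5.72% of all), namely Fgfr3, Igf1, Igf1r, Slc20a2 and Tnc. Ibsp had a peak in a control library and in no knockdown library, as 0.982% of all genes did.

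The mean number of peaks was higher in knockdown libraries at 22 genes (61.1%, against 56.2% of all genes) and higher in control libraries at 1, Ibsp (2.78%, against 1.12% of all). For no bone gene did every knockdown library hold more peaks than every control library, against 2.55% of all genes. Without knockdown 2 the count was 10 (27.8%, against 21.7% of all genes), without knockdown 1 it was 1 (2.78%, against 3.45%) and without control size3 it was 1 (2.78%, against 3.02%). The 10 genes without knockdown 2 were Alpl, Sparc, Tnfsf11, Pth1r, Fgfr1, Fgfr2, Fgf18, Igf1r, Smpd3 and Bgn. In a two-sided exact permutation test of peak number, 3 against 3 libraries, no p can be below 0.1. In this exact test, among the 24 genes with a peak, 11 had p = 0.4, Tnc had p = 0.5 and 12 had p = 1. The Benjamini-Hochberg adjusted p over 21887 genes was 1 for all 36 genes, and 0 of the 21887 genes had an unadjusted p under 0.05. The test therefore separated no bone gene between the groups.

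Gene length went with the number of hits. The 36 genes had a median span of 25.5 kb, against 17.2 kb over all protein-coding genes. They were split at 20 kb, a limit chosen after values had been seen. Of the 17 bone genes under 20 kb, 5 had a peak in knockdown 1 (29.4%, against 31.0% of all genes of that size) and 3 in knockdown size3 (17.6%, against 23.6%). None of the 17 had one in knockdown 2 (2.14% of all) or control 2 (0.0675% of all), and 1 each had one in control 1 (5.88%, against 0.304%) and control size3 (5.88%, against 2.31%). Knockdown 2 had a peak at 3 of the 19 longer genes (15.8%, against 14.8% of all of that size), and control 1 and control 2 at none (2.66% and 0.608% of all). Of those 19 genes of 20 kb or more, 11 had one in knockdown 1 (57.9%, against 58.7%) and 16 in knockdown size3 (84.2%, against 49.4%). Control size3 had a peak at 4 of these 19 (21.1%, against 9.23%). So the longer bone genes stood above the share of all genes of that size in the size3 libraries of both groups and near it in knockdown 1. Whether that excess is particular to bone genes was not tested.

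**Figure D2:**
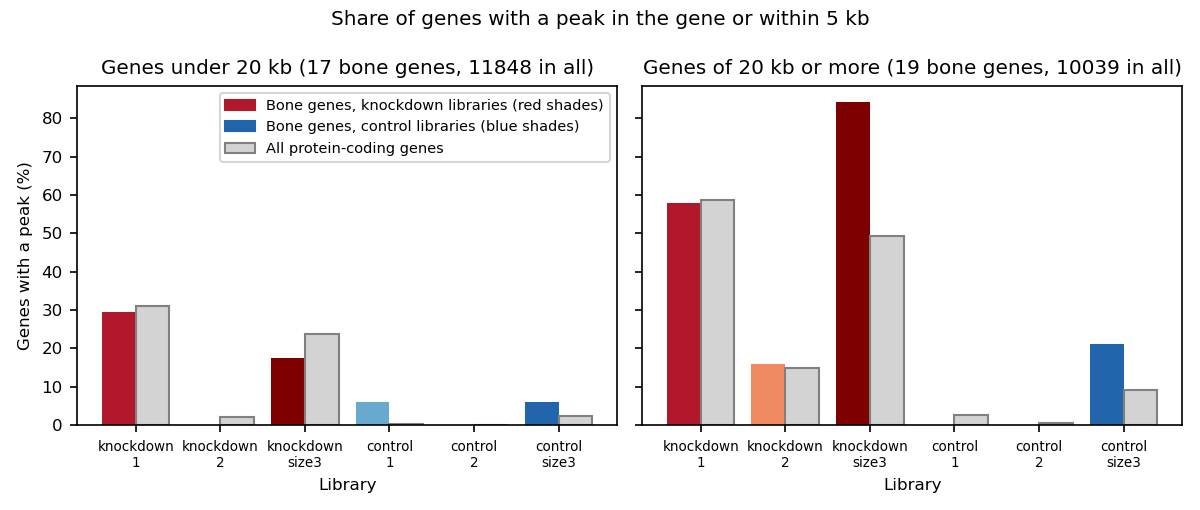
Percent of genes with a peak in the gene or within 5 kb, by library, for genes under 20 kb (left) and of 20 kb or more (right). Coloured bars are the bone genes (17 and 19) and grey bars all protein-coding genes of that size. The widest gap is that of the longer genes in knockdown size3, 84.2% against 49.4%.

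Of the 7 genes of bone proteins of the mineralised matrix, 3 had peaks, 2 of them in a knockdown library. Over all genes 57.7% had a knockdown peak, and 43.5% of those under 20 kb. The class had 4 peaks in knockdown and 1 in control libraries, and 1 of its 7 genes spans 20 kb or more. Sparc, which encodes the collagen- and calcium-binding protein osteonectin (chromosome 11, 55394159 to 55420080), had 1, 0 and 2 peaks in knockdown 1, 2 and size3 and none in the 3 control libraries. The peak of knockdown 1 (55404479 to 55405654) held 55 reads at a fold enrichment over input of 5.78. In knockdown size3 the peak with the higher score (55412411 to 55413434) held 25 reads at 5.73. The other (55415013 to 55415657) held 16 reads at 7.16. The nearest summits of the 2 libraries were 7817 bp apart, so the libraries did not share a site. Ibsp, the gene of bone sialoprotein, had its peak in control 1 alone, inside the gene at chromosome 5, 104301959 to 104302640, with 26 reads, a fold enrichment of 4.28 and a false discovery rate of 100%. Bglap2, an osteocalcin gene, had 1 peak in knockdown size3 with 11 reads at a fold of 9.24, and it overlapped the neighbouring osteocalcin gene Bglap3. Peaks were called from reads named as unique in the file headers, and the osteocalcin genes are near-identical copies, so counts at Bglap and Bglap2 are uncertain.

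The other matrix-protein genes of this class, Bglap, Spp1, Dmp1 and Mepe, had no peak in any library. Dmp1 (dentin matrix protein), Ibsp, Mepe (a matrix phosphoglycoprotein) and Spp1 (osteopontin) lie in this order beside each other on chromosome 5, with gaps between neighbours of 85.2, 13.9 and 96.5 kb, and they are therefore not independent loci. The nearest peak of knockdown 1 or knockdown size3 was 67.3 kb from Spp1, 39.3 kb from Dmp1 and 167.1 kb from Mepe. This stretch was thus empty of peaks in the 2 libraries with the longest lists.

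Among the mineral and phosphate genes, 4 of 7 had peaks, each in a knockdown library. Over all genes 57.7% had a knockdown peak, and 74.5% of those of 20 kb or more, the size of 5 of these 7. Smpd3, whose product neutral sphingomyelinase is needed for bone mineralisation in mice, had 2, 0 and 3 peaks in knockdown 1, 2 and size3 and none in control libraries. Its peak across the upper end of the gene in knockdown 1 (chromosome 8, 106336310 to 106338616) had 154 reads and a score of 144.65, the highest score of any peak at these genes in that library. A second peak of knockdown 1 at 106252953 to 106256082 held 174 reads at a fold of 3.48, and the nearest peak of knockdown size3 had its summit 2188 bp away, in the adjoining gene Prmt7. Alpl, the gene of tissue-nonspecific alkaline phosphatase (chromosome 4), had 1, 0 and 1 peaks in knockdown libraries and none in control libraries. The knockdown 1 peak at 137783390 to 137785327 had 93 reads at a fold of 4.35, and the knockdown size3 peak at 137773343 to 137774239 had 27 reads at 9.42. The summits lay 10177 bp apart inside the gene.

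Enpp1, which makes pyrophosphate, had 0, 1 and 2 peaks in knockdown 1, 2 and size3 and none in control libraries. The peak of knockdown size3 at chromosome 10, 24711501 to 24712266, reached over the start of the gene, with its summit 363 bp after it, 22 reads and a fold of 5.73. The knockdown 2 peak had 15 reads, a fold of 20.8 and a false discovery rate of 100%. Slc20a2, a sodium-phosphate cotransporter gene, had 1 peak in knockdown size3 and 1 in control size3, each with 12 reads. Their fold enrichments were 9.95 in knockdown size3 and 9.77 in control size3, and their summits were 38582 bp apart. Phex, an endopeptidase gene of phosphate balance that spans 253.2 kb, Phospho1, a phosphatase gene of matrix vesicles, and Slc20a1, a second cotransporter gene, had no peak, with the nearest peak of knockdown 1 or knockdown size3 at 16.3, 12.7 and 13.7 kb.

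Of the 8 genes of other matrix proteins and matrix enzymes, 3 had peaks, each in a knockdown library. Over all genes 57.7% had a knockdown peak, and 74.5% of those of 20 kb or more, the size of 3 of these 8. Tnc, which encodes the adhesion-modulating glycoprotein tenascin C (chromosome 4, 63959785 to 64047015), was the only bone gene hit in 4 libraries. It had 1, 1 and 4 peaks in knockdown 1, 2 and size3, against 0, 0 and 2 in control 1, 2 and size3. One of the 2 sites that knockdown 1 and knockdown size3 shared lay here: the peaks at 63999741 to 64000341 in knockdown 1 (25 reads, fold 8.1) and at 63999773 to 64000268 in knockdown size3 (11 reads, fold 8.09) had summits 74 bp apart. The Tnc peak with the highest score in knockdown size3, at 64017199 to 64018402, had 33 reads, a fold of 9.1 and a score of 111.06. All knockdown peaks of Tnc also lay in the long noncoding RNA gene 8030451A03Rik, and the 2 control peaks did not. The control peaks were over 24 kb from any knockdown peak, the closest pair of summits being 24577 bp apart.

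Bgn, the gene of the small proteoglycan biglycan, had 1, 0 and 1 peaks in knockdown libraries and none in control libraries. The knockdown size3 peak crossed the 3′ end of the gene (chromosome X, 73495552 to 73496067, 11 reads, fold 9.24) and the knockdown 1 peak lay just beyond it (73496448 to 73497156, 25 reads, fold 5.44), with summits 1057 bp apart. Postn, the gene of periostin, had 1 peak, in knockdown size3, whose summit lay 3 bp from the later of its 2 listed starts (chromosome 3, 54360805 to 54361393, 13 reads, fold 8.72). The noncoding gene Gm31095 overlaps that site. Ogn, Omd, Mmp13, Dcn and Lox, which encode osteoglycin, osteomodulin, a collagenase, decorin and lysyl oxidase, had no peak. Ogn and Omd are neighbours 15.4 kb apart.

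Each of the 5 genes of secreted signals had a peak in a knockdown library, as did 57.7% of all genes and 74.5% of those of 20 kb or more, the size of 4 of these 5. Sost, the gene of the Wnt antagonist sclerostin, is 4.6 kb long (chromosome 11, 101962458 to 101967015) and had 2, 0 and 0 peaks in knockdown 1, 2 and size3 and none in control libraries. Its peaks at 101962810 to 101965324 (153 reads, fold 5.99) and 101965358 to 101967862 (109 reads, fold 3.64) together ran over nearly the whole gene and its promoter. The first ranked above 95.8% of its list by score. Tnfsf11, which encodes RANKL, had 2, 0 and 1 peaks in knockdown libraries and none in control libraries. The promoter peak in knockdown 1 (chromosome 14, 78307241 to 78308504, 56 reads) had a fold of 3.22 and a score of 50.93, above 6.6% and 4.9% of its list. Tnfrsf11b, the gene of osteoprotegerin, had 1 peak in knockdown size3, across the upper end of the gene (chromosome 15, 54277918 to 54278739, 22 reads, fold 8.82).

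Fgf18, a growth factor gene of skeletal development, had 2, 0 and 2 peaks in knockdown libraries and none in control libraries. The promoter peak of knockdown size3 (chromosome 11, 33147256 to 33148814) held 38 reads, the most of any peak at these genes in that library, at a fold of 6.05 and a score of 110.09. No peak of knockdown 1 lay there. Inside the gene the nearest summits of the 2 libraries were 1359 bp apart. Igf1 had 1, 1 and 0 peaks in knockdown 1, 2 and size3, against 0, 0 and 1 in control libraries. The knockdown 1 peak lay at the listed start (chromosome 10, 87859976 to 87861386, 106 reads, fold 3.36), where the antisense gene Igf1os also lies. The peak of knockdown 2 held 9 reads and that of control size3 held 16, at 53702 and 16078 bp from it.

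All 7 genes of receptors and junctions had a peak in a knockdown library, 6 of 7 in knockdown 1 and 6 of 7 in knockdown size3. Of all genes, 43.7% had one in knockdown 1 and 35.5% in knockdown size3. Among genes of 20 kb or more the shares were 58.7% and 49.4%, in that order. Over all genes 57.7% had a knockdown peak, and 74.5% of those of 20 kb or more, the size of 5 of these 7. Igf1r, the receptor of insulin-like growth factor 1 and the longest of the 36 genes at 281.4 kb, had 6, 0 and 3 peaks in knockdown libraries, against 0, 0 and 1 in control libraries. The 6 peaks of knockdown 1 were spread along the gene and held 17 to 106 reads. In knockdown size3, a peak lay 1398 bp before the start (chromosome 7, 67950389 to 67951549, 36 reads, fold 5.91) and another 1396 bp after it (67952966 to 67953955, 24 reads, fold 6.3). The nearest summits of knockdown 1 and knockdown size3 were 4519 bp apart.

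The 3 genes of fibroblast growth factor receptors on the list all had peaks in knockdown 1 and knockdown size3, as did 23.4% of all genes. They span 57.0 kb (Fgfr1), 104.4 kb (Fgfr2) and 15.3 kb (Fgfr3). Fgfr1 had 3, 0 and 2 peaks in knockdown libraries and none in control libraries. It held the second shared site, with summits 3544 and 4129 bp below the lower end of the gene, at chromosome 8, 25513984 to 25515580 in knockdown 1 (94 reads, fold 3.61) and 25514422 to 25515621 in knockdown size3 (35 reads, fold 3.98), with an overlap of 1159 bp. Its peak at 25561809 to 25565904 in knockdown 1 held 231 reads, the most of any peak at these genes. Fgfr2 had 1, 0 and 3 peaks in knockdown libraries and none in control libraries. In knockdown size3 its peaks lay near the start, with a summit 599 bp after it, inside the gene and across the 3′ end (chromosome 7, 130161774 to 130162490, 17 reads, fold 10.16).

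Fgfr3 had 1, 0 and 2 peaks in knockdown libraries, against 0, 0 and 2 in control libraries, so the groups overlapped. Before its start lay the only site that a knockdown and a control library shared at these genes. How many of all genes hold such a site was not computed. The peak of knockdown 1 (chromosome 5, 33717994 to 33719066) had 76 reads, a fold of 4.52 and a false discovery rate of 2.47%, and the peak of control size3 (33718246 to 33718913) had 19 reads, a fold of 7.35 and a rate of 82.9%. Their summits were 216 bp apart. In knockdown size3 a peak at 33722287 to 33723568 (33 reads, fold 5.33) had its summit 302 bp after a listed start. The fold enrichments come from separate lists with separate inputs and were not compared.

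Pth1r, the receptor of parathyroid hormone, had 3, 0 and 1 peaks in knockdown libraries and none in control libraries. The peaks of knockdown 1 had their summits 9756, 17324 and 20167 bp after the start on chromosome 9, and the one at 110723428 to 110726465 had 162 reads, a fold of 4 and a score of 139.5. The peak of knockdown size3 lay at the start (110746541 to 110747556, 26 reads, fold 5.73), with its summit 53 bp from it. The nearest summits of the 2 libraries were 14238 bp apart, the farthest of any bone gene hit in both. Vdr, the vitamin D receptor gene, had 1 peak in knockdown size3 (28 reads, fold 5.25), where the noncoding gene Gm33690 also lies. Gja1, which encodes the gap junction protein connexin 43, had 1 in knockdown 1 (24 reads, fold 6.54), with its summit 1072 bp before the start.

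The 2 Twist genes encode helix-loop-helix factors that hold back osteoblast differentiation. Twist1 had 1 peak, in knockdown 1 (chromosome 12, 33955646 to 33956388, 28 reads, fold 7.81), with its summit 1504 bp before the start. Twist2 had 2 peaks, both in knockdown size3, with 26 and 27 reads. One summit lay 997 bp before the start (chromosome 1, 91799956 to 91800849, fold 6.3) and the other inside the gene (91822744 to 91823702, fold 4.53). Neither gene had a peak in knockdown 2 or in a control library.

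Where the same gene was hit in knockdown 1 and knockdown size3, the peaks mostly lay at different places. Both libraries had a peak at 12 bone genes (33.3%, against 23.4% of all genes). In 2 of the 12 (16.7%), Fgfr1 and Tnc, the peaks overlapped, which is 5.56% of the 36 genes against 8.23% of all genes. Over all genes, 1801 of the 5132 hit in both libraries (35.1%) had overlapping peaks. The distance between the nearest summits had a median of 2273 bp and ran from 74 to 14238 bp. Knockdown 2, with 3 peaks at these genes, shared no site with another library there. The share of all genes with such an overlap was not computed.

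Of the 74 peaks, 57 had their summit inside a bone gene, 16 in the 5 kb beside it and 1, at Fgfr3, beyond these, and 10 crossed a gene end. Among peaks at genes with a listed start, 7 of 26 in knockdown size3 and 2 of 24 in knockdown 1 had a summit within 1 kb of a start, and 0 of 10 in knockdown 2, control 1 and control size3. Over the lists, 9.29% of peaks in knockdown size3 and 12.4% in knockdown 1 had a summit there. The list share was 0.573% in knockdown 2, 0.406% in control 1 and 3.18% in control size3. Counted by gene, such a peak was present at 7 of the 29 genes with a listed start in knockdown size3 (24.1%, against 9.61% of all 17492 such genes). In knockdown 1 it was present at 2 (6.90%, against 15.5%). The genes were Tnfsf11 and Igf1 in knockdown 1 and Postn, Pth1r, Enpp1, Twist2, Fgfr2, Fgfr3 and Fgf18 in knockdown size3. None of the 29 had such a peak in both libraries, against 2.60% of all such genes, and the difference between the libraries was not tested. Other annotated genes overlapped 13 of the 74 peaks, a protein-coding one in 2 cases.

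In knockdown 1 and knockdown size3, peaks at the bone genes were wider and less enriched than the median of their lists. Median fold enrichment was 4.27 for the 29 peaks of knockdown 1, against 4.98 over that whole list, and 6.87 for the 34 peaks of knockdown size3, against 8.1. In the 7 peaks of control size3 it was 7.25, against 8.33 over that list. Median width was 1323 bp in knockdown 1 (990 bp over the list) and 743 bp in knockdown size3 (647 bp). The peaks held 17 to 231 reads in knockdown 1, 11 to 38 in knockdown size3 and 12 to 22 in control size3. By score, 3 of the 29 peaks of knockdown 1 were in the top 10% of their list, 1 each at Sost, Pth1r and Smpd3. So were 1 of 3 in knockdown 2, at Enpp1, and 3 of 34 in knockdown size3, at Alpl, Fgf18 and Tnc. None of the peaks of control 1 and control size3 was. In knockdown 1 and knockdown size3 the share was near the 10% that any list has by definition. The lowest of these peaks, that of Alpl, scored above 94.6% of its list. Fold enrichments and scores are the authors' values for each peak, and in this paragraph they are compared only within a list. The order of the other genes below and the limits on fold and score among the alternatives cross lists.

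**Figure D3:**
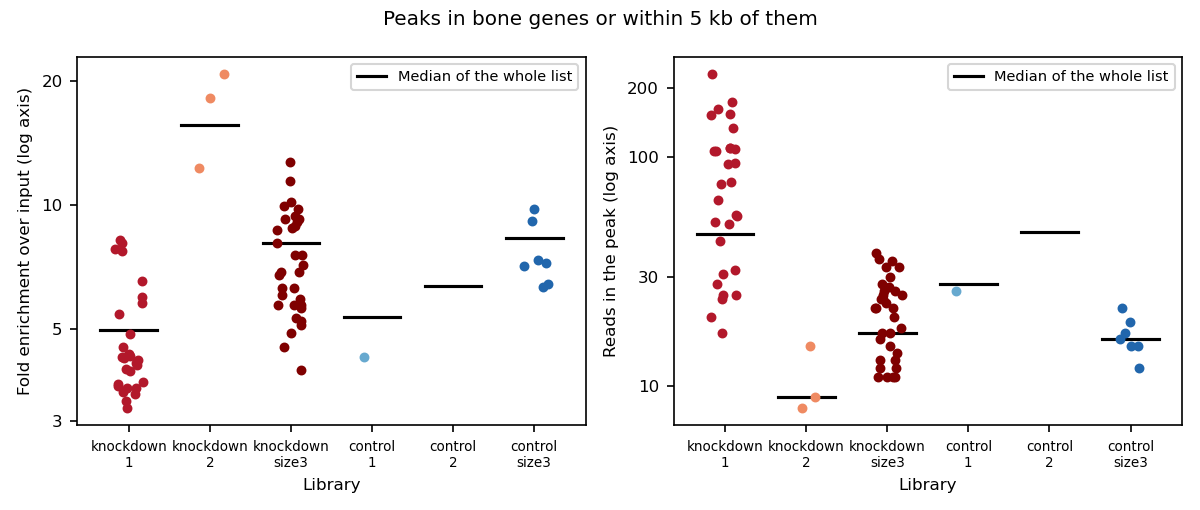
Fold enrichment over input (left) and reads (right, both on log axes) of each peak at the 36 bone genes, by library. Points are peaks and black lines the median of the whole list. Most points of knockdown 1 and knockdown size3 lie below the line for fold enrichment (21 of 29 and 22 of 34).

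The false discovery rate set knockdown 1 and knockdown size3 apart from the other libraries, knockdown 2 included. All 29 peaks of knockdown 1 at these genes had a rate of at most 5%, at 16 genes, as did 98.9% of that whole list. In knockdown size3 18 of 34 peaks did, at 12 genes, against 57.8% of the list, and the others reached up to 7.2%. The 3 peaks of knockdown 2 and the peak of control 1 had a rate of 100%, and the 7 peaks of control size3 had rates of 82.9 to 91.7%. So no peak of a control library at a bone gene met a rate of 5%, as was true of nearly every peak of those lists, in which 1, 0 and 0 peaks did in control 1, 2 and size3.

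At the edge of the window, the peak of knockdown size3 near Fgfr3 (33716116 to 33716835) lay 4.9 kb from the gene with its summit 5200 bp away, and the peak near Bglap2 lay 4.6 kb from the gene. The shared site near Fgfr1 lay 3.2 kb from the gene in knockdown 1 and 3.1 kb from it in knockdown size3. Counted by summit, the Fgfr3 peak drops out and the knockdown and control means of that gene are equal, a difference of 0.0 peaks against 0.33. Just outside were a peak of knockdown size3 5.3 kb from Dcn, with 11 reads and a fold of 12.71, and one of knockdown 1 7.0 kb from Vdr.

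A list of 88 other genes of bone matrix and signalling was read the same way. A peak was present at 51 of them in knockdown 1 (58.0%, against 43.7% of all genes). The count was 5 in knockdown 2 (5.68%, against 7.95%) and 39 in knockdown size3 (44.3%, against 35.5%). It was 1 in control 1 (1.14%, against 1.38%), 0 in control 2 (against 0.315%) and 9 in control size3 (10.2%, against 5.49%). Of the list's 44 genes of 20 kb or more, 28 had a peak in knockdown 1 (63.6%, against 58.7% of all of that size). Knockdown 2 had one at 4 of these (9.09%, against 14.8%) and knockdown size3 at 26 (59.1%, against 49.4%). Control size3 had one at 6 (13.6%, against 9.23%). The genes hit in the most libraries were Bmp1, Tnr, Frs2, Acan, Slc34a2, Ccn4 and Rxra, with 3 each. Another 26 had a peak in 2 libraries, of which Mmp16, Spock1 and Hand2 are named for their highest fold over any library and 23 are not. That order crosses lists whose median folds differ, from 4.98 to 15.6. Bmp1, which encodes a procollagen C-proteinase, had 3, 1 and 2 peaks in knockdown libraries and none in control libraries. Acan, the gene of the cartilage proteoglycan aggrecan, had 2, 1 and 1 in knockdown libraries and none in control libraries. In these 2 genes of the 88 every knockdown library held more peaks than every control library (2.27%, against 2.55% of all genes), with the smallest exact permutation p of 0.1 and an adjusted p of 1. Rxra, which encodes the partner of the vitamin D receptor, had 5, 0 and 3 peaks in knockdown libraries, against 0, 0 and 1 in control libraries. Frs2, which encodes an adaptor of the fibroblast growth factor receptors, had 1, 0 and 4 in knockdown libraries, against 1, 0 and 0 in control libraries, and its start was hit in both knockdown 1 and knockdown size3.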

How the data were processed

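Per the submitters' processing notes, reads were handled with cutadapt and Bowtie2 and the build was GRCm38. Per the file headers, the authors ran MACS 1.4.2 separately for every immunoprecipitate, with the input of the same label as background and 1.00e-05 as the largest p. The reads came from alignment files named as unique, with 1 read kept per position. The deposited values per peak are the count of reads, a score (the p-value as -log10, times 10), a fold enrichment (a ratio to the local input background) and a false discovery rate in percent. The deposited width and summit are in bp. Libraries were grouped by their sample labels.

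Peaks were joined by position to RefSeq gene spans of GRCm38.p6, with Python 3.11.15, numpy 2.4.6 and pandas 2.3.3. For each of 21887 protein-coding genes the number of peaks in 3 knockdown and 3 control libraries was compared by an exact two-sided permutation over 20 assignments, with Benjamini-Hochberg adjustment over all genes. Overlap counts and permutation were tested on simulated data. All 88 entries of the list of other genes matched a gene, 4 by an older symbol. Starts came from the RefSeq promoter table. The 36 genes and all lists were chosen with earlier results of these data known. By rule all 36 genes were described, and up to 10 of the other list, ranked by how many libraries hit the gene, ties by the highest fold over all libraries. The limits on fold and score among the alternatives were likewise common to all lists. Alternatives were other windows, stricter peaks, equal list lengths, each library left out and the label as a block. Exons were not analysed here.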

Additional observations from a re-analysis of the deposited data

How the results depend on the processing

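The difference of 10.67 bone genes per library kept its direction under other windows, at 9 with the gene span alone and 11.33 with 10 kb. It was 9.33 with a false discovery rate of at most 5%, and 2.0 with a score of at least 100 or with a fold of at least 10. The fold limit left no peak of knockdown 1 at these genes, where the highest fold was 8.24. List median folds were 4.98 in knockdown 1 and 15.6 in knockdown 2, so this limit does not treat the lists alike. With the 198 best peaks of each list no bone gene had a peak. The difference and the counts in at least 2 knockdown libraries, in a control library and with more peaks in knockdown were thus all 0. The whole list of control 2, with its 198 peaks, had a peak at 0.315% of all genes. The share over all genes at this length was not computed for the other lists. These zeros therefore cannot be read as particular to bone genes. Genes hit in at least 2 knockdown libraries numbered 8 at a rate of at most 5% and 0 with a score of at least 100 or a fold of at least 10. Genes hit in a control library numbered 0 under each of these 3 limits. Of 36 genes, 22 had a higher mean peak number in knockdown, and 6 with the score limit and 6 with the fold limit. The shares of all genes under these windows and limits were not computed. The counts therefore do not tell a change at bone genes from the loss of peaks over the whole lists. The cause of these changes was not tested, apart from the fewer peaks that each limit leaves.

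With each library left out in turn, the difference ranged from 7.5 to 15.5, the count in at least 2 knockdown libraries from 2 to 14, the count in a control library from 1 to 6, the count with more peaks in every knockdown library from 0 to 10 and the count with a higher knockdown mean from 16 to 23. Without the 3 libraries with a median rate of 100%, an alternative chosen after seeing the data, 10 genes had more peaks in every knockdown library and the difference was 12.5. Fgfr3 changed direction, from 0.33 peaks more in knockdown to -0.17 without knockdown size3 and to -0.5 without those 3 libraries, and Igf1 to -0.5 without those 3.

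With the replicate label as a block, the difference stayed 10.67, with within-label differences of 3 to 15, and 22 genes had a higher knockdown mean. No p from 8 sign flips can be below 0.25, so the block changed no call. Libraries with the same label did not all deviate together over genes (correlations of -0.07, 0.16 and 0.12 for labels 1, 2 and size3). Pairs of unlike label ran from -0.2 to 0.15, so these correlations cannot decide whether the labels pair the libraries. The size3 immunoprecipitates of both groups had low redundant rates (0.02 in knockdown, 0.01 in control) and the smallest inputs (10199730 and 10529079 reads). The main test used no pairing. Peak lists hold no reads outside peaks, so a gene without a peak may have had signal under the caller's threshold, above all in knockdown 2 with its 5575205 reads.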
